A study of Mus musculus with 18 samples.

Results

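The cytosolic ribosome is built from a large and a small subunit, each a scaffold of ribosomal RNA clothed with ribosomal proteins whose genes carry the prefixes Rpl (large) and Rps (small). The mRNAs of most of these genes are known to begin with a 5′ terminal oligopyrimidine tract, the TOP motif. Through it the growth-regulating kinase complex mTORC1 controls their translation together. In the developing cortex their mRNAs are known to be more abundant in dividing progenitors than in the neurons those cells give rise to. The genes were taken by symbol: Rpl or Rps with a number and at most 1 letter with an optional number, plus Rpsa, Rplp0, Rplp1 and Rplp2, leaving out named pseudogenes and the S6 kinases. The rule found 89 of the 54532 genes in the table, 53 of the large and 36 of the small subunit. Fau, which encodes a small-subunit protein fused to a ubiquitin-like sequence, falls outside the symbol rule and is among the other TOP mRNAs given further on.

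The libraries were made from the frontal cortex of mice at postnatal day 0. The dKO libraries came from double mutants of Rxrg and Rarb, which encode nuclear receptors that pair on DNA and respond to retinoic acid, and the other libraries came from pups labelled control. The medial, orbital and dorsal regions, 3 in all, were sequenced from each genotype in 3 replicates, giving 6 groups and 18 libraries. The replicates fell into sets A, B and C by title prefix and index. Set A has the prefix RAR, and sets B and C both have RXR. The 3 regions that share a set and a genotype are called a row here. The labels do not say how many animals were used, whether a row is 1 brain, which exons were altered, whether any region-specific driver was used or which alleles the controls carry, so p-values measure the spread between these samples, which may be technical.

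Total counts ran from 28957325 to 93093398 per library. Every library of set A had at least 52317649, and every library of sets B and C at most 39158792, so depth and title prefix moved together. CPM below means counts per 1000000 fragments assigned to genes. The targeted gene Rarb ranged over 1.19 to 4.85 CPM in dKO and 3.50 to 13.9 CPM in control libraries. Rxrg ranged over 0.377 to 2.90 CPM in dKO and 1.64 to 30.5 CPM in control libraries, so neither gene separated the genotypes completely. Within a set, the genotypes overlapped only in set A. There Rarb was at 2.96 to 4.85 CPM in dKO and 3.50 to 7.39 CPM in control libraries, and Rxrg at 1.05 to 2.90 and 1.64 to 2.35 CPM. Within set B and within set C, every control library was above every dKO library for both genes. Xist, which is transcribed from the inactive X chromosome of females, was at 22.2 to 31.4 CPM in the dKO row of set A and 9.45 to 11.7 CPM in that of set C, and at most 0.155 CPM in every other library. Genotype and sex therefore moved together in sets A and C. The cortical transcription factor gene Neurod6 was at 848 CPM or more in all 18 libraries, and Ttr, the defining gene of choroid plexus, was at most 2.99 CPM. For the ribosomal protein genes, 2 libraries lay furthest from the rest: the dKO medial library of set B at the top and the control dorsal library of set A at the bottom.

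Levels varied widely between the 89 genes. Per kilobase of exon, which is the scale used here to set genes side by side, Rplp0 was highest with a mean level of 507 CPM per kb over the 18 libraries. Rps14, Rpl4 and Rps3a1 followed with mean levels of 376, 292 and 258 CPM per kb. Rplp0 (ENSMUSG00000067274, GRCm38 chromosome 5, 115559467 to 115563727, plus strand) encodes the base of the stalk that recruits the elongation factors. The levels of 80 genes averaged at least 1 CPM and those of 9 genes less. Of these 9, Rpl10l and Rps12l1 had a count of 0 in all 18 libraries. For Rpl10l a count of 0 is still compatible with an expected count of up to about 3 in a library. Another annotated gene covers 100% of the exon bases of Rps12l1, so its count of 0 may not reflect its level.

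The filter on low counts removed 5 genes from the comparisons by region, which were not tested there: Rpl10l, Rps12l1, Rpl39l, Rpl3l and Rpl6l. Rpl10l is a paralog of Rpl10 known from the testis and Rpl3l a paralog of Rpl3 known from striated muscle. The highest count of either Rpl39l or Rpl3l in any library was 5. The remaining 84 were tested. The paralog genes with measurable levels were Rpl7l1 with a mean of 100.3 CPM, Rps27l with 34.1, Rps4l with 27.4 and Rpl22l1 with 23.1 CPM. The lowest levels per kb among the tested genes were those of Rps10 (0.300), Rps3a3 (0.546), Rpl32l (0.615) and Rps3a2 (0.789 CPM per kb).

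Many of these genes share long stretches of sequence with copies elsewhere in the genome, which bears on what a count means here. A pair of coding sequences is shown because it marks both ends of this range. Rps27l encodes a paralog of Rps27, and the first 60 bases of both coding sequences, read from GENCODE M21 transcripts with the bases that differ in capitals, were:
Rps27: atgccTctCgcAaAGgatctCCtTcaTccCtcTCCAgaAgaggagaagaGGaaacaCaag
Rps27l: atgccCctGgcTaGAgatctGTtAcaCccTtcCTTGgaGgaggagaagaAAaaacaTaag
Over the whole 255 bases the 2 genes differed at 61 positions, 18 of them in the stretch shown, and no 100-base window of Rps27l was found unchanged in another gene. For Rps27, in contrast, 100% of the 100-base windows were found unchanged in another annotated gene. Of the 82 coding sequences long enough for a window, 21 had every window in another gene, 57 had over 50% there and 9 had none. The median share was 71.4%. The sequenced reads were 100 bases long and paired, so a fragment from such a stretch could be placed at more than 1 gene, and how many were lost or moved was not tested.

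Rps10, a small-subunit gene mutated in some patients with the red cell disorder Diamond-Blackfan anaemia, had a mean of 0.693 CPM, while its named pseudogenes held 199% as many counts as the gene itself. Other annotated genes, most of all the read-through gene RPS10-NUDT3, covered 28.7% of its exon bases. The share of exon bases covered by other annotated genes was larger for Rpl35 (66.2%, mostly Wdr38; mean 62.3 CPM), Rpl23a (62.3%, mostly Tlcd1; mean 48.2 CPM), Rpl24 (47.0%; mean 9.87 CPM) and Rpl13a (35.4%; mean 12.4 CPM), and was 100% for Rps12l1. The counting did not use strand, so levels of these genes are uncertain.

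The promoters were read for sequence that the tested genes have in common. The RefSeq promoter table (GRCm38.p6; 250 bases before to 50 bases after each start) held 64 of the 89 genes. Windows from 30 bases before the annotated start to 20 bases from it on are shown for 6 of the genes named in the results. The longest pyrimidine tract of at least 6 bases that begins with C within 20 bases of the start is in capitals:
Rpl19 (chr11:98026894-98026943, plus): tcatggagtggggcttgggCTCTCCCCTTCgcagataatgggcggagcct
Rps6 (chr4:86857348-86857397, minus): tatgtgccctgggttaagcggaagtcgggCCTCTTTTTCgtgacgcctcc
Rpl22l1 (chr3:28805478-28805527, plus): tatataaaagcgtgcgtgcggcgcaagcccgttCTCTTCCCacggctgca
Rps23 (chr13:90923092-90923141, plus): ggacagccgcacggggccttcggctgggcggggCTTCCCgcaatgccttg
Rps7 (chr12:28635934-28635983, minus): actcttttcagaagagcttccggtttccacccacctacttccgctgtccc
Rpl26 (chr11:68901536-68901585, plus): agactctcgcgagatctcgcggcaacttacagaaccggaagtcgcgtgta
Rps7 and Rpl26 have no tract by this rule. Such a tract was present for 42 of the 64 genes. By promoter, it was in 59.2% of the 76 listed for these genes and 31.4% of all 32851 in the table. The letters CCGGAAG, the core bound by ETS-family factors, were found on either strand in 35.5% of their promoters and 8.86% of all. CTTTCC on the sense strand within 20 bases of the start was in 14.5% and 2.003%. These are matches in annotated windows and not mapped transcription starts. The 41 tested genes with a tract and the 20 with a listed promoter but no tract had median log2 fold changes of 0.39 and 0.30 for dKO against control in medial tissue.

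As a whole, the 89 genes took 1.70% ± 0.305 of all counts in dKO medial and 1.17% ± 0.333 in control medial tissue (SD, n = 3 each). In orbital tissue the shares were 1.24% ± 0.146 in dKO and 1.33% ± 0.190 in control libraries, and in dorsal tissue 1.13% ± 0.0576 in dKO and 1.02% ± 0.224 in control libraries. The medial groups overlapped. The dKO medial libraries of sets A, B and C had 1.58%, 2.04% and 1.47%, and the control medial libraries 1.53%, 0.866% and 1.13%. Set A's medial control thus lay inside the dKO range, while the medial controls of sets B and C lay below it. The share in dKO over that in control was 1.03, 2.36 and 1.31 in medial tissue of sets A, B and C. In orbital tissue this ratio was 1.09, 0.818 and 0.911, and in dorsal tissue it was 1.38, 1.11 and 0.938. No p-value is given for these shares. In bulk tissue, more cells of a type rich in these mRNAs and more of them per cell cannot be told apart.

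**Figure D1:**
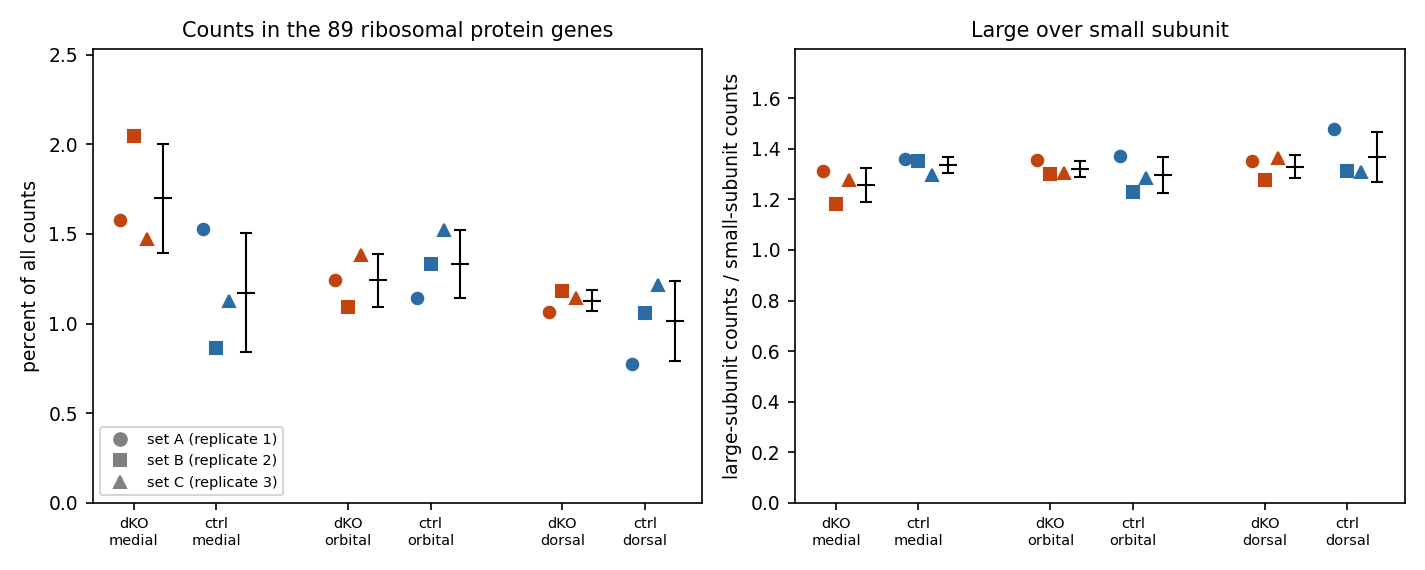
Left, percent of all counts in the 89 ribosomal protein genes, 1 point per library, by region (dKO left of control, ctrl); marks show the set, and the bar gives mean ± SD of 3. The dKO medial libraries lie between 1.47% and 2.04%, with the control medial library of set A, at 1.53%, among them. Right, counts of large-subunit genes over those of small-subunit genes, for which the group means run from 1.26 to 1.37.

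Large- and small-subunit genes rose and fell together, but not in equal proportion. The ratio of their counts was lowest, at 1.18, in the dKO medial library of set B. It was highest, at 1.48, in the control dorsal library of set A. In these libraries the large-subunit share was 1.11% and 0.461%, and the small-subunit share 0.938% and 0.312%. The counts of large-subunit genes divided by those of small-subunit genes averaged 1.26 ± 0.0686 in dKO medial and 1.34 ± 0.0330 in control medial libraries, and 1.30 to 1.37 in the other groups (SD, n = 3). Over the 3486 pairs of tested genes, the correlation of log2 CPM across the 18 libraries had a median of 0.79 and quartiles of 0.62 and 0.88. These correlations describe libraries that share sets, rows and depth. Rpl19, Rpl32 and Rpl41 followed the mean of the other members most closely (r = 0.99, 0.98 and 0.98), and 40 of the 84 genes did so with r over 0.9. The least alike were Rps10 (r = 0.24), Rpl26 (0.26), Rps3a2 (0.36), Rpl29 (0.38) and Rpl7l1 (0.40).

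**Figure D2:**
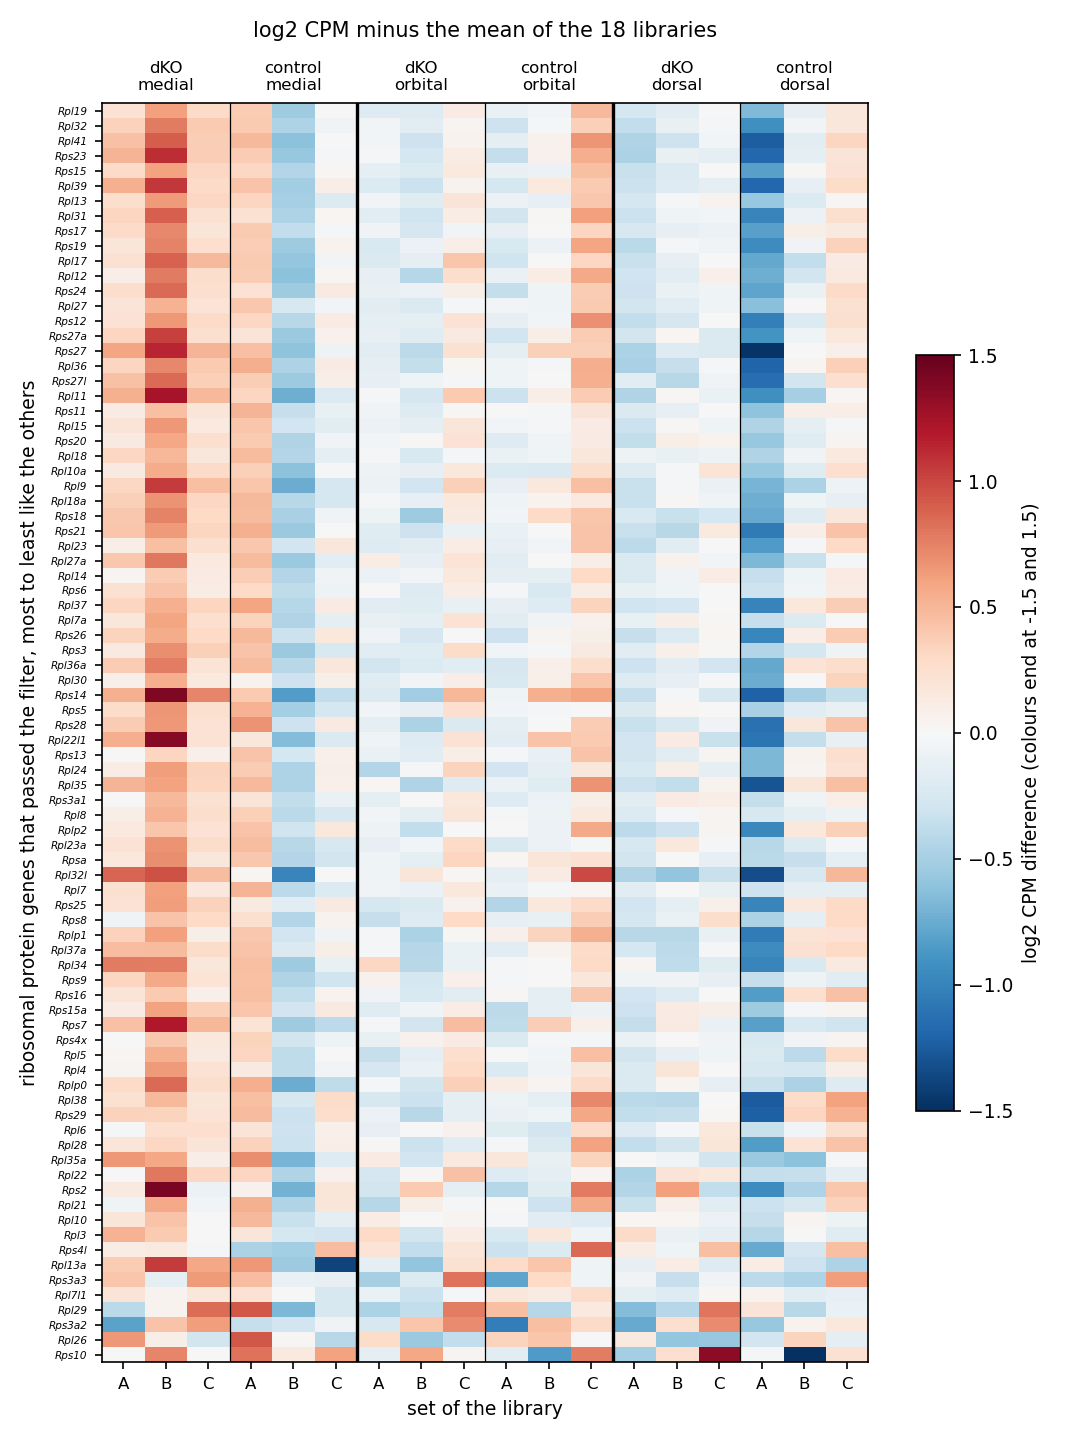
log2 CPM of each of the 84 tested genes minus its own mean over the 18 libraries; columns are libraries by group and set, rows are ordered by how closely a gene follows the other members, and colours end at -1.5 and 1.5. The dKO medial libraries and the control medial library of set A are above the mean for 78 to 83 genes, and the control dorsal library of set A and the control medial library of set B are each above it for 3.

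Genes outside the family were ranked by how like their log2 CPM over the 18 libraries was to the mean of the tested members. Predicted genes with Gm or Rik symbols, accession-style symbols and named pseudogenes were left out of the ranking. The 8 most alike were Ndufc2 (r = 0.98), Hint1 (0.97), Cox4i1 (0.96), Chchd1 (0.96), Ndufs6 (0.95), Snrpe (0.95), Snrpd2 (0.95) and Sec61g (0.95). Ndufc2, Cox4i1 and Ndufs6 encode subunits of the respiratory chain, Snrpe and Snrpd2 core proteins of the spliceosomal RNPs, and Sec61g a subunit of the protein channel on which membrane-bound ribosomes sit. The median r of all tested genes with this mean was 0.00.

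In medial tissue, dKO was compared with control, with genotype and sex moving together in sets A and C as given above. There, 82 of the 84 tested genes had a higher fitted level in dKO than in control. Their median log2 fold change was 0.36, against 0.00 over all tested genes. No member passed the test: 0 of 84 were called by edgeR's quasi-likelihood test at an adjusted p under 0.05, while 389 of all 18730 genes (2.08%) were. At an unadjusted p under 0.05 there were 15 members, all higher in dKO, and 2816 genes in all. The CPM of dKO and control libraries did not overlap for 21 members, each higher in dKO, against 11.7% of all tested genes. Within sets, the median log2 difference of the members was -0.16 in set A, 1.05 in set B and 0.27 in set C, and 20, 83 and 77 of the 84 were positive. In all 3 sets, 18 were positive, against 15.3% of all genes. The shared shift in medial tissue was thus seen in sets B and C and largest in set B.

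Rps7 had the lowest p in medial tissue. It encodes a small-subunit protein needed for processing of the 18S ribosomal RNA and able to bind Mdm2 (ENSMUSG00000061477, GRCm38 chromosome 12, 28630854 to 28635953, minus strand). It had 332, 527 and 318 CPM in dKO medial libraries of sets A, B and C, against 248, 152 and 171 CPM in control medial libraries. The groups did not overlap, and the log2 fold change was 0.92 (SE 0.261, edgeR adjusted p = 0.0795). Over 16 alternative settings its adjusted p ran from 0.00774 to 0.321 and passed 0.05 in 4.

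Rps14, a small-subunit gene at the platform of the subunit whose loss is known in human 5q- syndrome, had 739.5, 1254 and 781 CPM in dKO medial libraries, against 587, 256 and 361 CPM in control medial libraries. Every dKO library was above every control library (log2 fold change 1.07, SE 0.329, edgeR adjusted p = 0.109). Rpl22l1, the paralog of Rpl22, had 34.1, 56.0 and 25.01 CPM in dKO against 22.99, 13.4 and 18.4 CPM in control medial libraries (0.95, SE 0.301, adjusted p = 0.118). Rpl22 itself, with 131, 210.0 and 149 CPM in dKO and 143, 85.9 and 124 CPM in control medial libraries, had a log2 fold change of 0.35 (SE 0.227, adjusted p = 0.514), and its groups overlapped.

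**Figure D3:**
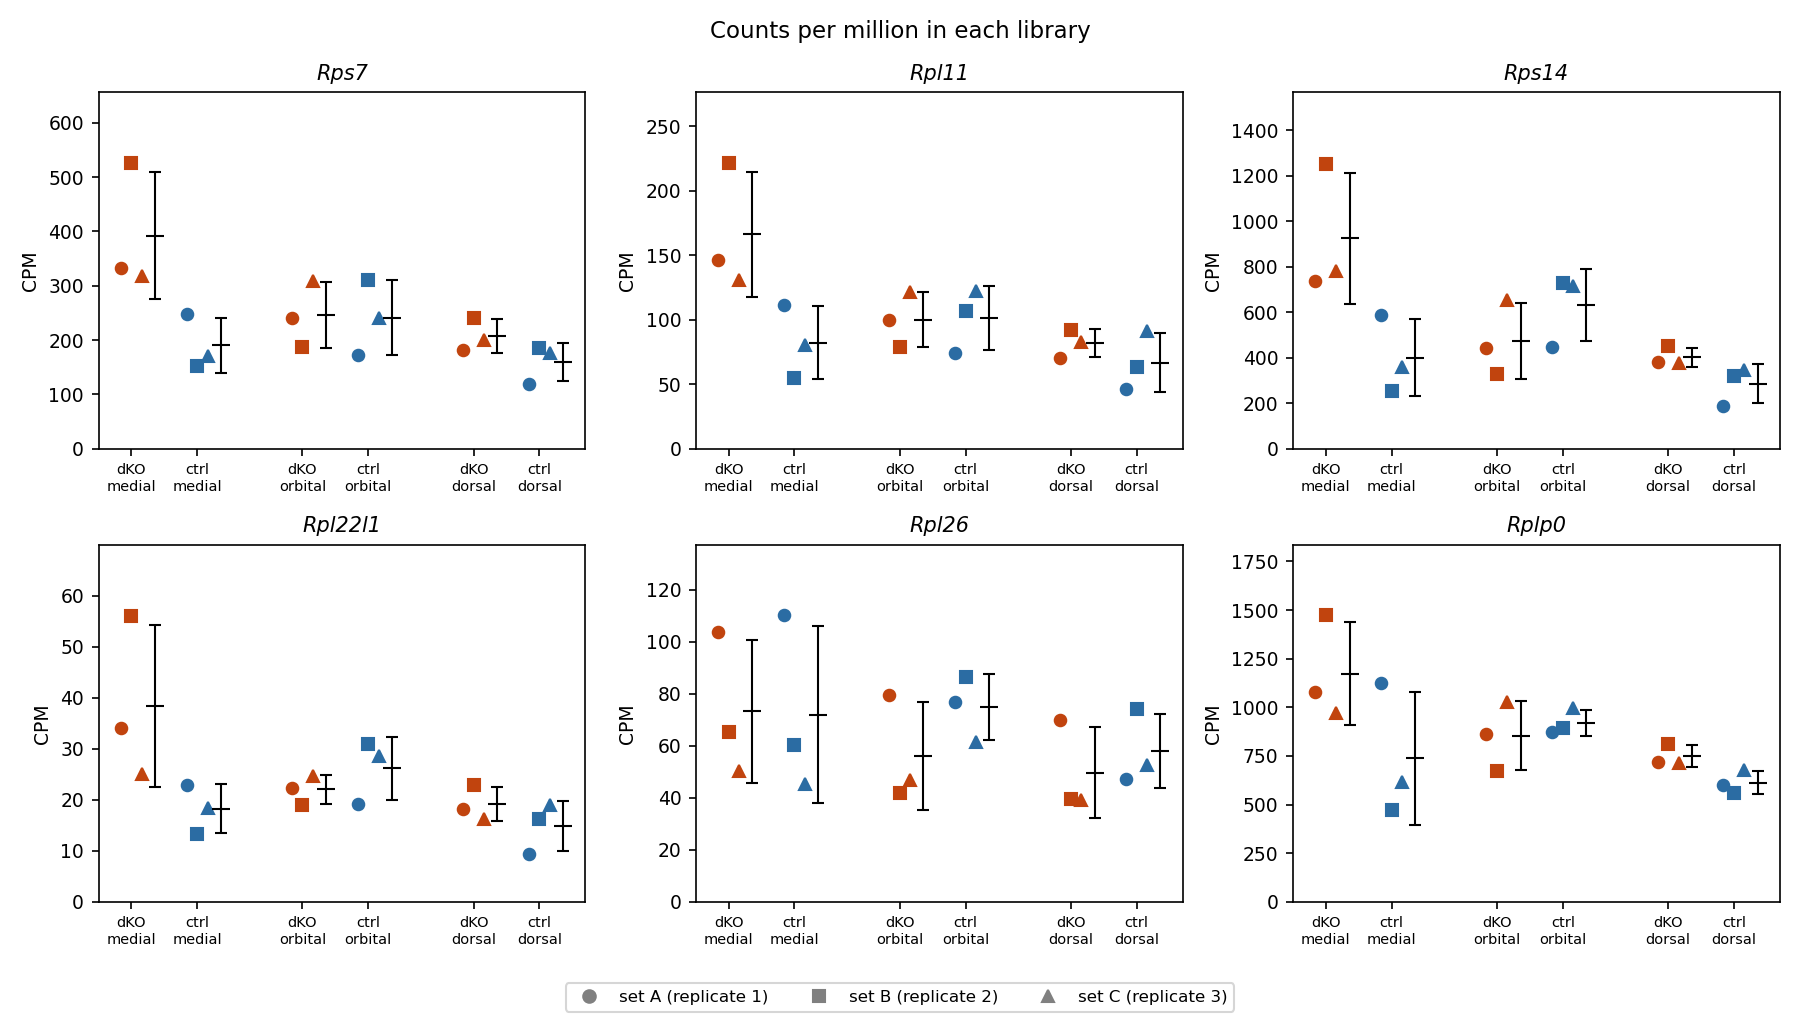
CPM of 6 ribosomal protein genes in each library, by region with dKO left of control (ctrl); marks show the set and bars the mean ± SD of 3. Rps7, Rpl11, Rps14 and Rpl22l1 are highest in the dKO medial library of set B (527, 222, 1254 and 56.0 CPM), Rpl26 overlaps between dKO and control in medial tissue, and Rplp0 of the control medial library of set A (1123 CPM) lies among the dKO medial values.

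Rpl11 and Rpl5 together with 5S ribosomal RNA form the particle that can inhibit Mdm2 and so raise p53. Rpl11 (ENSMUSG00000059291, GRCm38 chromosome 4, 136028265 to 136053428, minus strand) had 146, 222 and 131 CPM in dKO medial libraries, against 111, 54.6 and 80.6 CPM in control medial libraries. The groups did not overlap (log2 fold change 0.89, SE 0.294, edgeR adjusted p = 0.136). Rpl5 had 148, 196 and 146 CPM in dKO and 159, 99.9 and 133 CPM in control medial libraries (0.22, SE 0.222, adjusted p = 0.721), and its groups overlapped. Of 12 genes fixed as p53 and its targets, 0 were called in medial tissue in either direction, 8 were positive and the median was 0.14. Bbc3, a proapoptotic target, went against most of the list at -0.62 (SE 0.257, edgeR adjusted p = 0.248). The summed level of the list was 496 to 547 CPM in dKO and 418 to 447 CPM in control medial libraries. Over the 18 libraries, r of its log2 sum with the log2 share of counts in the ribosomal protein genes was 0.84. Any link between the 2 was not tested.

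The other roles held values of the same kind, none past the threshold. The 4 stalk proteins had a median log2 fold change of 0.34 in medial tissue. For Rplp0 the dKO medial libraries had 1076, 1475 and 969.8 CPM and the control medial libraries 1123, 473 and 618 CPM, so set A was lower in dKO, the other sets higher (0.60, SE 0.262, adjusted p = 0.279), while Rplp2 was at 0.12 (SE 0.273, adjusted p = 0.901). The 7 small-subunit genes that line the decoding site and the mRNA channel ran from 0.24 to 1.07 with a median of 0.47, among them Rps3 (0.47) and Rps23 (0.67). The 9 large-subunit genes at the exit of the peptide tunnel ran from -0.05 to 0.57 with a median of 0.39. Of 10 genes mutated in Diamond-Blackfan anaemia 8 were positive, with Rps10 (-0.32) and Rpl26 (-0.05) the exceptions, which were also the only members below 0 in this comparison. Rpl26 was at 0.05 when scaled by library totals, and Rps10 at 0.29 with its named pseudogenes added. The mRNA of Rps6, whose protein is the target of the S6 kinases, was at 0.28 (SE 0.175, adjusted p = 0.493). Rps27a, which encodes ubiquitin fused to a small-subunit protein, was at 0.61 (SE 0.257, adjusted p = 0.264).

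Rpl26, a large-subunit gene whose protein is known to bind p53 mRNA, followed the other members little across libraries (r = 0.26, as given). It had 104, 65.5 and 50.2 CPM in dKO medial libraries and 110.5, 60.1 and 45.4 CPM in control medial libraries, so its groups overlapped. The X-linked members Rps4x, Rpl10, Rpl36a and Rpl39 were at 0.17, 0.18, 0.32 and 0.57 on the log2 scale, within the range of the autosomal ones. Whether their dose differed between the sexes was not tested.

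The value of the medial comparison hung on single libraries. Without the control medial library of set A (replicate 1), the members' median was 0.68 and 18 members were called higher by edgeR, against 174 of 19373 genes (0.898%), with Rps14 at 1.66 (adjusted p = 0.0108) and Rps7 at 1.35 (adjusted p = 0.0139). Without the control medial library of set B the median was 0.13, and without the dKO medial library of set B 0.23, both with 0 members called. With DESeq2 in place of edgeR, Rps7, Rps14, Rpl22l1 and Rpl11 were called (adjusted p = 0.0160, 0.0238, 0.0330 and 0.0429), against 3.04% of all genes called higher.

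Marker genes of other cell types also differed between dKO and control medial tissue. Of all genes 1.18% were called higher and 0.897% lower in dKO medial tissue. Of 12 genes of dividing cells 9 were called higher, among them Cdk1 (log2 fold change 1.37, SE 0.180, edgeR adjusted p = 0.00260), and their summed level was 329 to 566 CPM in dKO and 103 to 172 CPM in control medial libraries. In the list for radial glia with intermediate progenitors, 6 of 14 genes were called higher, among them Pax6 (2.46, SE 0.378, adjusted p = 0.00449), with summed levels of 1571 to 2318 CPM in dKO and 783 to 1203 CPM in control medial libraries. Of 12 genes of neuronal maturation 5 were called lower, among them Syn2 (-1.08, SE 0.153, adjusted p = 0.00287), with 2519 to 2876 CPM in dKO and 3218 to 4116 CPM in control medial libraries. Of 9 astrocyte genes 2 were called higher and 8 were positive with a median of 0.58, and their summed level was 892 to 1438 CPM in dKO and 325 to 1047 CPM in control medial libraries. The erythroid sum, mainly the globin genes Hba-a1 and Hbb-bs, was 1492 to 3118 CPM in dKO and 804 to 1109 CPM in control medial libraries. Microglial genes summed to 260.1 to 296 CPM in dKO and 147 to 261 CPM in control medial libraries. The share of mitochondrially encoded genes was 0.839% to 1.99% in dKO and 0.688% to 0.881% in control medial libraries, highest in the dKO library of set B. Sums did not follow the member share in every library. Set A's control medial library, at 1.53%, had the lowest medial progenitor sum (783 CPM). Over the 18 libraries, r of log2 share with log2 sum was 0.29 for dividing cells and 0.42 for progenitors. It was 0.59 for erythroid genes and -0.69 for neuronal maturation. In orbital and dorsal tissue all 12 dividing-cell genes were positive too (medians 0.63 and 0.84, 0 called). The members' medians there were -0.14 and 0.06. The part of these cell types, of blood and of RNA quality in the ribosomal protein result was not tested.

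**Figure D4:**
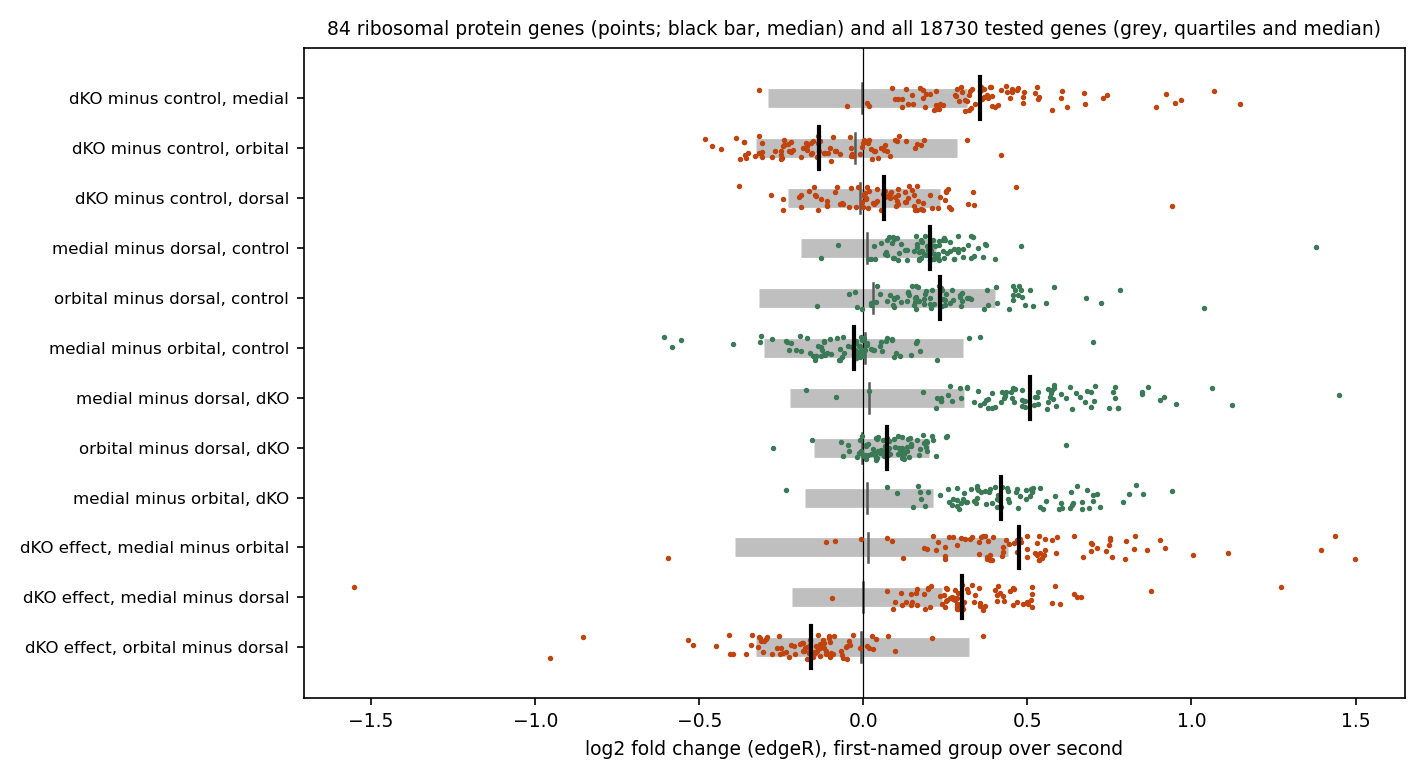
log2 fold change of the 84 tested ribosomal protein genes (points, with the median as a black bar) and of all 18730 tested genes (grey, quartiles with the median) in 12 comparisons, the first-named group over the second. The members' median is 0.36 for dKO against control in medial tissue, 0.51 for medial against dorsal tissue within dKO and 0.42 for medial against orbital tissue within dKO.

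In orbital tissue the members leaned the other way, again with no call: the median log2 fold change was -0.14, 23 of 84 were positive, 0 were called against 7 of all 18730 genes (0.0374%), and 1 had an unadjusted p under 0.05. That gene was Rpl7l1, whose protein is related to Rpl7. It had 101, 80.4 and 97.3 CPM in dKO orbital libraries, against 111, 116 and 122 CPM in control orbital libraries. The groups did not overlap (log2 fold change -0.33, SE 0.136, edgeR adjusted p = 0.293). Next by p were Rpl26 (-0.48, SE 0.258, adjusted p = 0.414) and the stalk gene Rplp1 (-0.46, SE 0.275, adjusted p = 0.466). The positive members with the lowest p were Rpl10 (0.19), Rps3a2 (0.42) and Rps15a (0.16). Leaving out the control orbital library of set C brought the median to 0.00, and setting each member against genes of its own exon length brought it to -0.02.

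In dorsal tissue the median was 0.06 and 57 of 84 were positive. Of the members 0 were called and 0 had an unadjusted p under 0.05, against 4 genes called in all (0.0214%) and 1270 at an unadjusted p under 0.05. Rps14 (0.46, SE 0.323, edgeR adjusted p = 0.857) and Rps7 (0.33, SE 0.258, adjusted p = 0.883) were again among the members with the lowest p, and Rpl26 (-0.38, SE 0.259, adjusted p = 0.851) was the lowest of all. Without the control dorsal library of set A, which had 0.773% of its counts in these genes, the median was -0.15. With the regions of each row summed, 62 of 85 members were positive with a median of 0.10, 0 were called against 5 of 20083 genes (0.0249%), and Rps7 led with 0.43 (SE 0.138, adjusted p = 0.434).

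Whether the dKO difference itself varied between regions was tested as an interaction with the row as a block. For medial against orbital tissue the members' median was 0.47 and 80 of 84 were positive. None was called (275 of all genes were, 1.47%), and 10 members had an unadjusted p under 0.05. Set against genes of their own exon length, the members had a median of 0.28. The lowest p belonged to Rpl13a (1.39, SE 0.426, edgeR adjusted p = 0.100), a large-subunit gene whose counts are uncertain as described, then Rps14 (1.497, SE 0.482, adjusted p = 0.111) and Rpl7l1 (0.48, SE 0.155, adjusted p = 0.114). Without the control row of set A the median was 0.76 and 49 members were called higher, against 2.93% of all genes. For medial against dorsal tissue the median was 0.30 with 82 positive, and for orbital against dorsal tissue -0.16 with 9 positive. In each of these 0 members and 0 of all 18730 genes (0%) were called by edgeR, and 0 members were under an unadjusted p of 0.05, against 969 and 2363 of all genes.

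Between regions, the widest shift was inside the dKO genotype. Set against dorsal tissue, medial tissue of dKO pups had higher levels in 82 of 84 members, with a median log2 fold change of 0.51 against 0.02 over all genes. Within sets A, B and C the medians were 0.51, 0.68 and 0.27, and 81 members were positive in all 3 sets, against 23.8% of all genes. The CPM of the groups did not overlap for 71 members, each higher in medial tissue, against 13.3% of all genes. The test still called 0 members, against 392 of all genes (2.09%), while 51 members and 3325 genes had an unadjusted p under 0.05.

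Rpl11 had the lowest p, with 146, 222 and 131 CPM in medial and 70.3, 92.1 and 83.0 CPM in dorsal dKO libraries (0.95, SE 0.281, edgeR adjusted p = 0.0989). Rps14 followed at 1.12 (SE 0.336, adjusted p = 0.104) and Rps7 at 0.85 (SE 0.265, adjusted p = 0.117). The paralogs Rps27 (1.06, SE 0.342) and Rps27l (0.77, SE 0.262) shifted alike. The 2 members below 0 were Rps10 (-0.17) and Rps4l (-0.08). By subunit the median was 0.49 for 49 large-subunit and 0.52 for 35 small-subunit genes. The 6 tested genes with no window in another gene had a median of 0.56 and the 21 with every window in another gene 0.53.

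Markers differed in this comparison too. In medial against dorsal dKO tissue, 5 of 14 progenitor genes were called higher (all 14 positive, median 0.79) and 2 of 12 genes of dividing cells (all 12 positive, median 0.69), against 0.870% of all genes. The summed progenitor level was 1571 to 2318 CPM in medial and 959 to 1142 CPM in dorsal dKO libraries. Of the genes of neuronal maturation 2 of 12 were called lower (median -0.37), against 1.22% of all genes, and of the astrocyte genes 1 of 9 was called higher (median 0.51). The 19 mitochondrially encoded genes were all positive with a median of 0.64 and 0 called, and the 6 erythroid genes were all positive with a median of 0.66 and 0 called. Their part in the result was not tested.

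The number of calls in this comparison depended strongly on the setting. DESeq2 called 10 members higher (3.32% of all genes were), edgeR with no filter on low counts 35 (1.56%), and edgeR without the control row of set A, which is no part of this contrast but of the shared spread, 39 (2.14%). Medial against orbital tissue within dKO gave a median of 0.42 with 83 of 84 positive. It had 0 members called against 3 genes in all (0.016%) and 32 members with an unadjusted p under 0.05. Its groups did not overlap for 55 members, each higher in medial tissue, against 6% of all genes, and 62 members were positive in all 3 sets, against 16.2% of all genes. Orbital against dorsal tissue within dKO had a median of 0.07, with 71 positive and 0 called against 91 genes in all (0.486%).

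The same regional pattern was not seen in all control rows. In control tissue, medial against dorsal gave medians of 1.10, -0.32 and -0.17 in sets A, B and C, with 84, 4 and 4 of 84 members positive. The fitted median of 0.20 (82 positive, 0 called, 92 genes called in all, 0.491%) therefore averages over rows of opposite direction. It was -0.25 without the control row of set A. For medial against orbital tissue in controls the set medians were 0.52, -0.39 and -0.37, the fitted median was -0.03, and 0 members were called while 1690 of all genes (9.02%) were. Without the control row of set A this median was -0.35.

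Orbital against dorsal tissue in controls was the comparison with the most calls over all genes, 2965 of 18730 (15.8%), and had 0 members among them. The median of the members was 0.23, 79 of 84 were positive, and the set medians were 0.54, 0.09 and 0.18. Rps14 came closest to the threshold, with 448, 729 and 716 CPM in orbital and 189, 319.5 and 348 CPM in dorsal control libraries. These groups did not overlap (log2 fold change 1.04, SE 0.335, edgeR adjusted p = 0.0504, from 2.40e-06 to 0.149 over 14 alternatives). For 15 members the groups did not overlap, each higher in orbital tissue, against 14.1% of all genes. In this comparison 9 of 12 microglial, 8 of 12 meningeal fibroblast, 5 of 6 erythroid, 5 of 14 progenitor, 3 of 12 dividing-cell and 2 of 9 astrocyte genes were called higher in orbital tissue, against 6.39% of all genes. Of the genes of neuronal maturation 5 of 12, and of the cortical markers 5 of 9, were called lower, against 9.44% of all genes. Their part in the ribosomal protein values was not tested.

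Exon length moved with these values. The ribosomal protein genes are short: 21 of the 84 lay in the shortest decile of tested genes (exon length up to 1185 bases) and 26 in the next. In medial tissue, the median log2 fold change of dKO against control over all genes was 0.21 in the shortest and -0.12 in the longest decile. When each member was set against the median of its own decile, the members' median was 0.28 in medial tissue, in place of 0.36. For medial against dorsal tissue in dKO it was 0.40, in place of 0.51, and for orbital against dorsal tissue in controls 0.05, in place of 0.23. For dKO against control in orbital tissue it was -0.02, in place of -0.14, and for the interaction of medial against orbital tissue 0.28, in place of 0.47. The interaction of orbital against dorsal tissue was at -0.03, in place of -0.16, and medial against orbital tissue in dKO at 0.34, in place of 0.42. In the control dorsal library of set A the members lay a median of 0.71 below their own means on the log2 scale and other genes of the shortest decile 0.28 below. In the dKO medial library of set B they lay 0.62 and 0.34 above. The part of exon length in the result was not tested further.

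**Figure D5:**
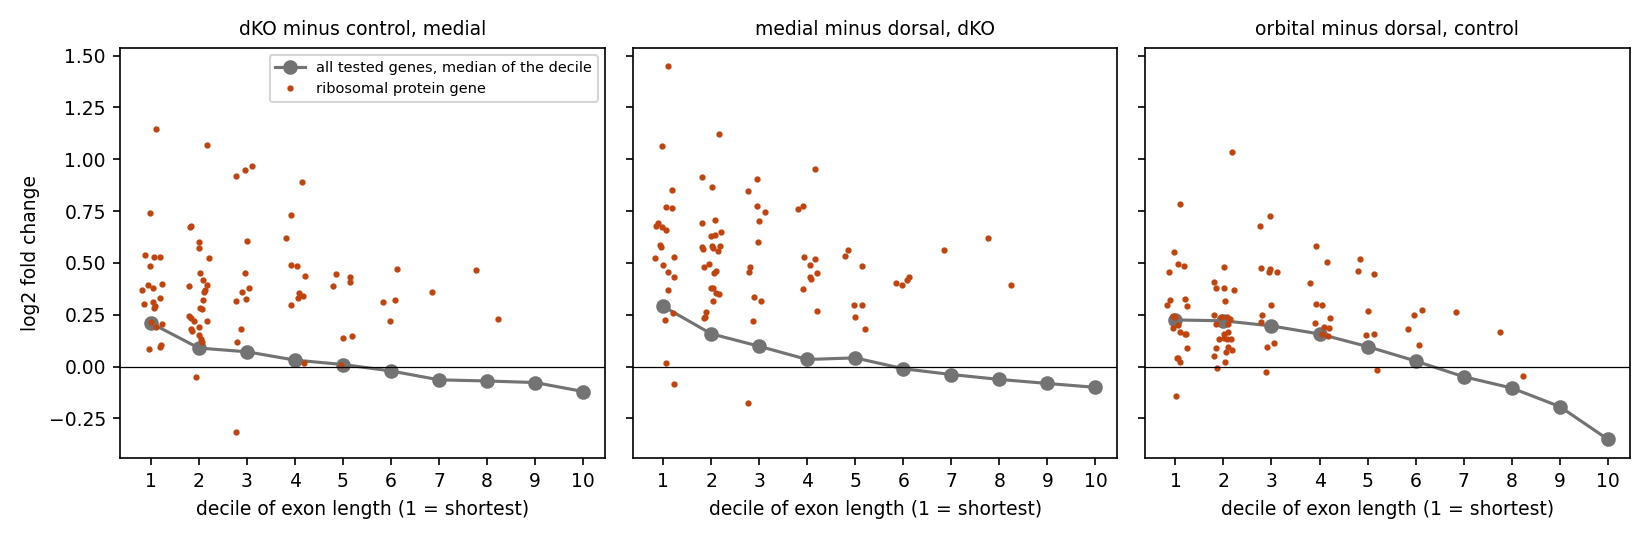
log2 fold change by decile of exon length (1 is shortest) in 3 comparisons, for all tested genes (grey, median of each decile) and each ribosomal protein gene (points). The grey medians are lower in the longest than in the shortest decile (-0.12 and 0.21 for dKO against control in medial tissue), and most points lie above the grey line in the first and second panels and around it in the third.

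Other genes of the translation machinery were set beside the ribosomal proteins. Of 20 elongation and initiation factor genes and other TOP mRNAs, 18 were positive in medial tissue with a median of 0.12 and 0 called in either direction, among them Eef1a1 (0.46, SE 0.219, edgeR adjusted p = 0.331) and Rack1, the small-subunit scaffold (0.52, SE 0.236, adjusted p = 0.308). Their summed level was 9597 to 12477 CPM in dKO and 6575 to 10489.6 CPM in control medial libraries. Of 36 genes of ribosome biogenesis, which build the particle in the nucleolus, 16 were positive with a median of -0.05, and of 15 genes of mTORC1 and TOP mRNA control 7 were positive with a median of -0.01. In both lists 0 were called. Of 77 tested genes of mitochondrial ribosomal proteins 51 were positive with a median of 0.07 and 0 called. In dKO, 65 of the 77 were positive for medial against dorsal tissue (median 0.20) and 69 for medial against orbital tissue (median 0.20). For the medial-orbital difference of the dKO effect 67 were positive (median 0.28), and in each of these 0 were called. Over the 18 libraries, r of log2 member share with log2 sum was 0.87 for this list. It was 0.85 for the factors and other TOP mRNAs and -0.07 for ribosome biogenesis. In orbital against dorsal control tissue, 4 of 36 biogenesis genes and 5 of 15 mTORC1 and TOP control genes were called lower in orbital tissue, against 9.44% of all genes.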

How the data were processed

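Counts per gene were deposited by the authors in 1 table of the whole series. Per the file headers they were made with featureCounts over paired fragments without strand and with the Ensembl release 94 annotation, and the submitters' processing notes name STAR 2.6, featureCounts 1.6.2 and GRCm38. Per the labels, total RNA was amplified with SMART-seq v4. The command in the header sets no option to count multi-mapping fragments. Gene symbols were matched for 54409 of 54532 IDs. Of 24 columns of per-sample values, 6 matched no labelled sample and were not used.

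edgeR 4.0.16 (R 4.3.3) was run on all genes with TMM factors and filterByExpr (minimum count 10, minimum total 15), and p-values were adjusted by Benjamini-Hochberg over all genes tested, threshold 0.05. dKO effects used 6 group means with the title prefix as a covariate, which sets the deeper set A apart from sets B and C. Region differences and interactions used the row as a block, since libraries of a row deviated together (r of 0.227 to 0.612 over 18 pairs). Libraries of 1 row may share an animal, which the fits of dKO effects by region do not model. Printed CPM are counts over the library total, while fits, within-set differences and likeness use TMM-scaled values (log2 CPM with a prior count of 2). DESeq2 1.42.0 and limma 3.58.1 were alternatives. The fits were tested on simulated data. Members, lists and settings were chosen with earlier results of these data known. Named genes are, for each comparison, the 3 members of lowest p in each direction where none was called, plus paralogs, role and X-linked members and those highest and lowest per kb, with the 8 most alike other genes and up to 4 genes of lowest p per list. Genes named for their correlation with the family or for overlapping annotation were chosen after their values were seen. Shares carry counting error that is small beside the spread between libraries.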

Additional observations from a re-analysis of the deposited data

Results flagged for a closer look

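Rps14 and Rps27l drew attention because, on TMM-scaled log2 CPM, dKO lay above control in every set of one region and below it in every set of another. Rps14 had 441, 328 and 655 CPM in dKO and 448, 729 and 716 CPM in control orbital libraries, lower in dKO in all 3 sets. In medial tissue it was higher in dKO in all 3 sets. The difference between the 2 dKO effects was 1.497 on the log2 scale (SE 0.482, edgeR adjusted p = 0.111). Rps14 was also higher in dKO in all 3 sets of dorsal tissue, with 380.2, 451 and 378 CPM in dKO and 189, 319.5 and 348 CPM in control libraries. The orbital minus dorsal difference of its dKO effect was -0.86 (SE 0.472, edgeR adjusted p = 0.483).

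Rps27l had 47.9, 59.3 and 41.7 CPM in dKO and 39.9, 21.7 and 34.3 CPM in control medial libraries. In orbital tissue it had 32.4, 31.2 and 31.8 CPM in dKO and 30.9, 34.8 and 47.4 CPM in control libraries, and set A was lower in dKO there only after TMM scaling. The difference between these effects was 0.76 (SE 0.369, edgeR adjusted p = 0.262). None of the 3 differences passed 0.05.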

How the results depend on the processing

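Over the alternatives, 183 recomputed counts of called members stayed at 0 and 19 did not. Of the recomputed medians, 201 moved by no more than the SD of the 3 set medians. That SD was wide, at 0.61 for dKO against control in medial and 0.78 for medial against dorsal control tissue. Medians that changed sign could therefore count as unmoved. Leaving out 1 library, the median ran from -0.15 to 0.21 in dorsal tissue. Leaving out 1 row, it ran from -0.25 to 0.47 for medial against dorsal control tissue. The median that moved more was that of orbital tissue, where the SD was 0.12. It was at 0.0035 without control replicate 3 (leave-one-out range -0.20 to 0.0035). Where edgeR called 0 members, other settings called some, given here with the share of all genes called in the same direction. No filter on low counts gave 4 (0.937% of all genes) for dKO against control in medial tissue, 9 (4.19%) for orbital against dorsal and 1 lower (3.1%) for medial against orbital control tissue, 35 (1.56%) and 8 (0.163%) for medial against dorsal and against orbital dKO tissue, and 10 (1.7%) and 1 lower (0.757%) for the medial-orbital and orbital-dorsal differences of the dKO effect. DESeq2 gave 4 (3.04%) in medial tissue, 10 (3.32%) for medial against dorsal dKO tissue and 2 (3.76%) for the medial-orbital difference. limma-voom gave 1 (2.18%) in medial tissue and 1 (6.7%) for orbital against dorsal control tissue, where library totals gave 2 (9.35%). Leaving out 1 library or row, the counts ran from 0 to 18 (0.898% of all genes at the highest count) in medial tissue, 0 to 1 (4.58%) for orbital against dorsal and 0 to 4 lower (1.72%) for medial against orbital control tissue, 0 to 39 (2.14%) for medial against dorsal dKO tissue and 0 to 49 (2.93%) for the medial-orbital difference. The highest count came without control replicate 1 in each of these, and for orbital against dorsal control tissue also without dKO replicate 2 (5.03%).

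The set as a replicate block gave 0 called members in all 4 dKO comparisons, with a median of 0.36 in medial tissue. dKO and control libraries of a set shared little (r from -0.016 to 0.289 over 9 pairs), so the numbers were not taken as pairs. Region comparisons with no replicate block gave 0 called members in all 9.

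Named genes changed sign in 36 recomputed values, given here as log2 differences. With pseudogenes added, Rps10 was at 0.29 in medial tissue, 0.60 for medial and 0.029 for orbital against dorsal dKO tissue, 0.20 for the medial-orbital and 0.11 for the medial-dorsal difference. With library totals, Rpl26 was at 0.045 in medial tissue, Rps15a at 0.068 and Rpl10 at 0.085 for orbital against dorsal control tissue, Rpl7l1 at 0.0064 for orbital against dorsal dKO tissue and Rps3a3 at 0.00181 for the medial-orbital difference. limma-voom put Rpl10 at 0.017 for orbital against dorsal and Rpl13a at 0.039 for medial against dorsal control tissue. Leaving out 1 library at a time, the range was -0.57 to 0.0029 for Rps10 and -0.25 to 0.21 for Rpl26 in medial tissue (0.065 for Rpl26 without dKO replicate 3), and -0.69 to 0.046 for Rpl38 in dorsal tissue. Leaving out 1 row changed further signs. In control tissue these were Rps15a (-0.075), Rpl13a (0.21) and Rps3a2 (0.020) for medial against dorsal, Rps15a (0.013), Rps3a3 (0.24) and Rpl10 (0.083 and 0.034) for orbital against dorsal, and Rpl10 (-0.049) for medial against orbital. In dKO tissue they were Rps4l (0.11) and Rps10 (0.53) for medial against dorsal and Rps10 (0.37) for orbital against dorsal. For the dKO effect they were Rps3a2 (0.32 and 0.069) and Rps3a3 (0.52 and 0.20) between medial and orbital, Rps4l (0.024 and 0.093) between medial and dorsal, and Rps3a3 (-0.015 and -0.022) and Rpl10 (-0.0047) between orbital and dorsal tissue. The cause was not tested. Depth limits the genes under 1 CPM most.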
